A study of Mus musculus with 18 samples.

Results

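The Egr, Ier, Nr4a and Klf genes described here are immediate early genes, which cells transcribe within minutes of a growth factor, stress or calcium signal from transcription factors that are already present. They were taken as the rows of the deposited count table whose symbol was Egr1, Egr2, Egr3, Ier2, Ier3, Ier5, Nr4a1, Nr4a2, Klf2 or Klf4, and all 10 were found among 55450 genes. RNA-Seq profiled ED1SQ4, a murine lung cancer cell line derived from lung cancers of mice that overexpress a cyclin E transgene, so every group carried that transgene and came from 1 line. Cells received vehicle or 0.5 μM CYC065 (fadraciclib), an inhibitor of the cyclin-dependent kinases CDK2 and CDK9, for 72 hours. From each treatment, RNA was made from unsorted cells and from cells stained with a DNA dye and sorted by DNA content. The paper calls the sorted populations diploid (2N) and polyploid (4N), which gives 6 conditions with the unsorted cells. It names no other property for the sort, so cell cycle phase was not separated from ploidy. Whether the unsorted cells were also stained was not given in the sources used here.

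Each condition had 3 columns of counts, which the sample titles number as replicates and the library names number as parts of a single library name. Columns were compared over genes with a mean of at least 10 counts in the columns compared. Over those with whole counts in every column, the 3 columns of a condition differed by no more than sampling noise. Chi-square divided by its degrees of freedom lay between 0.991 and 1.02, against 14.5 to 374 between conditions. Another 2513 to 2649 genes per condition passed this mean but had a fractional value in a column of any condition. Over these, the same quantity was 4.35 to 7.60 and so beyond sampling noise. All values of the 10 genes were whole. The columns were summed and counted as 1 library, so that n = 1 for each condition. The summed libraries held 54750203 to 62795507 counts. Values are CPM, counts scaled to library size after TMM normalization, and each log2 fold change has a 95% counting interval. These intervals cover counting error only, since spread between cultures was not measured, and no P value is given. A gene was tested where either library compared held at least 30 counts, which all 10 genes passed in every comparison, and was called higher or lower beyond 2-fold.

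The labelled lung origin was checked against marker genes. The 8 lung epithelial markers summed to between 0.593 and 1.61 CPM, Nkx2-1 had no count in any library and Epcam had at most 1. The 5 fibroblast markers Col1a1, Col1a2, Pdgfra, Pdgfrb and Dcn were all present in every library, and summed to 8969 CPM in unsorted, 6957 in 2N and 6093 in 4N vehicle cells, and to 15492, 11604 and 9351 CPM with CYC065. Of the 4 leukocyte markers, Ptprc was at 0 in 5 libraries and at 1 count in the other. Adgre1 had at most 1 count and Lyz2 at most 17. Cd68 made up nearly all of the leukocyte sum, which was 3.45 to 4.06 CPM with vehicle and 11.05 to 24.0 with CYC065. The 3 endothelial markers summed to between 0.523 and 1.88 CPM. The cells are called by the name of their line below, and the part of these marker genes in the results was not tested. In bulk samples of this kind, a lower level may mean fewer cells that express a gene or less RNA per cell, which cannot be told apart.

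As background, immediate early genes are read by RNA polymerase II that is often already paused near their start, and CDK9 is the kinase that releases it. Serum response factor binds the CArG box and CREB binds the cyclic AMP response element, and both are known to switch these genes on. The Egr genes encode zinc finger transcription factors that bind GC-rich sites, the Nr4a genes encode orphan nuclear receptors that act without a known hormone, and the Klf genes encode Krüppel-like zinc finger factors. Ier2 and Ier5 encode related short nuclear proteins, and Ier3 a protein linked to cell survival.

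Promoter windows from RefSeq (GRCm38.p6), which run from 250 bases before each start site to 50 after it, were matched for 7 of the 10 genes (Egr2, Ier3, Ier5, Nr4a1, Nr4a2, Klf2 and Klf4). Those of Egr2, Nr4a1 and Nr4a2 are printed, because these were the 3 genes with the widest range between conditions. Egr2 had 5 windows. The 1 printed held the most of the 2 motifs marked below, tied with those starting at 67537620 and 67537680, and had the lowest start of these. Another Egr2 window held a CArG box at a different place and no half-site. The 250 bases before the start are given 5′ to 3′ in the direction of transcription, with the CArG box (CC, 6 bases of A or T, then GG) and the cyclic AMP response half-site TGACG, or CGTCA on the other strand, in capitals.
Egr2, chr10:67537619-67537868, plus strand: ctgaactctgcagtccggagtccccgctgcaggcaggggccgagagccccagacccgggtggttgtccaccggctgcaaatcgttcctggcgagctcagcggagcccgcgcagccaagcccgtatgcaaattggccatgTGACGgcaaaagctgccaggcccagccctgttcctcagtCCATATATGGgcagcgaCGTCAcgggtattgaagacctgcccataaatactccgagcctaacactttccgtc
Nr4a1, chr15:101266596-101266845, plus strand: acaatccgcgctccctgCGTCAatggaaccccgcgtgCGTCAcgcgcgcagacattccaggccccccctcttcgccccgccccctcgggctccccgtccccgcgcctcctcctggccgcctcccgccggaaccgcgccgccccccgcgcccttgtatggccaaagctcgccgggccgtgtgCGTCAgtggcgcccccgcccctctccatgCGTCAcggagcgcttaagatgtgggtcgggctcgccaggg
Nr4a2, chr2:57124004-57124253, minus strand: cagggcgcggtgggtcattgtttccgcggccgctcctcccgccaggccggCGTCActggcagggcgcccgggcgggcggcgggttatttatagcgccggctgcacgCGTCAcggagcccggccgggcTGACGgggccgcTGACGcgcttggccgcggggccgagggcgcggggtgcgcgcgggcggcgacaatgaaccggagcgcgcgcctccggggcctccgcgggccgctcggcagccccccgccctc
In GENCODE M21, the Egr2 stretch lies in an intron of 2 longer Egr2 transcripts, the Nr4a1 stretch lies in an intron of a longer Nr4a1 transcript, and the Nr4a2 stretch lies upstream of the gene and overlaps no other. The Egr2 stretch holds 1 CArG box and 2 half-sites, and those of Nr4a1 and Nr4a2 hold 4 half-sites each.

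Both strands of all windows were searched for 6 motifs. The CArG box was found in 1 of the 7 genes (Egr2) and in 1.81% of all 27025 genes with a window. The half-site TGACG was found in 5 of 7 (Egr2, Nr4a1, Nr4a2, Klf2 and Klf4) and in 23.0% of all genes. At least 4 half-sites, the number that the printed Nr4a1 and Nr4a2 stretches hold, were found in 0.231% of all windows. The full element TGACGTCA, which contains the half-site on both strands, was found in none of the 7 and in 2.03% of genes. GCGNGGGCG, the site that Egr proteins bind, was found in Nr4a1, Nr4a2, Klf2 and Klf4 (6.27% of genes). AAAGGTCA, which Nr4a proteins bind as monomers, was found in none of the 7 (1.70% of genes). TATAAA was found in Nr4a2 (15.7% of genes). These matches describe the letters of the windows and not binding.

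The 10 genes differed widely in how far their levels ranged over the 6 conditions. Egr2, Nr4a2 and Nr4a1 had a highest level 11.3, 10.98 and 10.2 times the lowest. The ratio was 4.46 for Egr1 and 3.78 for Egr3. Ier3, Ier2 and Klf2 had ratios of 3.29, 2.86 and 2.78, and Klf4 and Ier5 the lowest ones, 2.20 and 1.72. The 2N cells with CYC065 held the highest level of 7 genes (Egr2, Egr3, Ier2, Ier3, Ier5, Nr4a1 and Klf4), while Egr1 was highest in unsorted cells with CYC065, Nr4a2 in 4N cells with CYC065 and Klf2 in 2N cells with vehicle. The 4N cells with vehicle held the lowest level of 5 genes (Egr1, Egr2, Egr3, Ier2 and Ier3). The shares of all genes that were highest or lowest in these libraries were not counted, so these counts describe the 10 genes only.

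**Figure D1:**
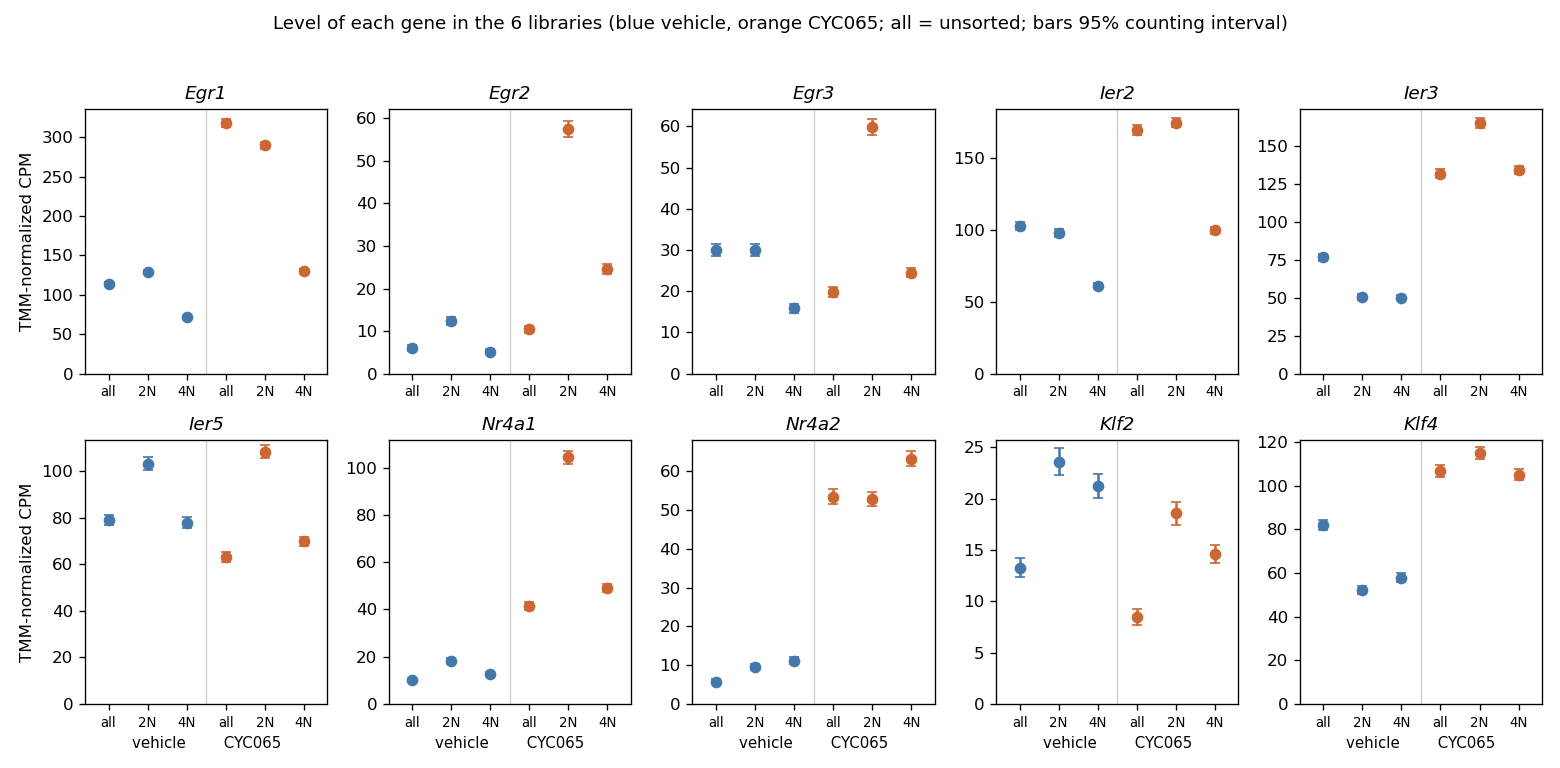
TMM-normalized CPM (linear axis from 0) of each of the 10 genes in the 6 libraries, vehicle in blue and CYC065 in orange, with unsorted cells shown as "all". Points are single libraries and bars are 95% counting intervals. Nr4a1 and Egr2 peak in 2N cells with CYC065, at 104 and 57.5 CPM, while Nr4a2 is between 52.8 and 63.2 CPM in all 3 libraries with CYC065.

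Egr1, the family member that growth factors induce in most cell types, was at 113 CPM in unsorted, 129 in 2N and 71.4 in 4N vehicle cells, and at 318, 290 and 130 CPM with CYC065. All 3 levels with CYC065 were above that of the same population with vehicle, but the intervals of 4N cells with CYC065 and 2N cells with vehicle overlapped. Egr1 was 2.81-fold higher with CYC065 in unsorted (log2 fold change 1.49, 95% counting interval 1.45 to 1.53) and 2.25-fold higher in 2N cells (1.17, 1.13 to 1.21). In 4N cells the difference was 1.82-fold (0.87, 0.81 to 0.92), short of 2-fold.

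Egr2, known for its part in myelination and in T cell tolerance, was at 5.98 CPM in unsorted, 12.3 in 2N and 5.08 in 4N vehicle cells. With CYC065 it was at 10.4, 57.5 and 24.6 CPM. Its sorted CYC065 libraries thus stood above the other 4, and the lowest levels, in unsorted and 4N vehicle cells, had overlapping intervals. The difference with CYC065 was 4.66-fold in 2N (log2 2.22, 2.10 to 2.34) and 4.84-fold in 4N cells (2.27, 2.10 to 2.45), against 1.73-fold in unsorted cells (0.79, 0.60 to 0.99).

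Egr3, which acts beside Egr2 in lymphocytes and muscle spindles, was at 30.02 CPM in unsorted, 29.97 in 2N and 15.8 in 4N vehicle cells, and at 19.7, 59.8 and 24.5 CPM with CYC065. It was the Egr gene whose direction with CYC065 was not the same in each population. Its log2 fold change was −0.61 (−0.72 to −0.50) in unsorted, 1.00 (0.91 to 1.08) in 2N and 0.63 (0.52 to 0.75) in 4N cells. The value in 2N cells was a fold of 1.996, just short of the 2-fold threshold, and passed it when counts were scaled by the total count or by DESeq2 size factors.

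Per kilobase of exon, Egr1 was the most abundant of the 3 Egr genes in every library, but by unequal margins. In CPM per kilobase, Egr1 exceeded Egr2 14.4 times in unsorted, 7.93 times in 2N and 10.6 times in 4N vehicle cells. With CYC065 the ratio was 23.3 in unsorted cells and 3.83 and 4.00 in 2N and 4N cells. Egr2 was below Egr3 in all vehicle libraries, with per-length ratios of 0.258 to 0.534, and in unsorted cells with CYC065, at 0.683. Egr2 was above Egr3 in sorted cells with CYC065, at 1.25 in 2N and 1.30 in 4N.

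Among the Ier genes, Ier2 was at 102 CPM in unsorted, 97.6 in 2N and 61.0 in 4N vehicle cells, and at 169, 174 and 99.6 CPM with CYC065. Its fold with CYC065 was alike in size in the 3 populations and below 2-fold in each, at 1.65, 1.79 and 1.63. Its level in 4N cells with CYC065 had an interval that overlapped those of unsorted and 2N vehicle cells.

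Ier3, also known as IEX-1, was at 76.7 CPM in unsorted, 50.4 in 2N and 50.1 in 4N vehicle cells, and at 132, 165 and 134 CPM with CYC065. All CYC065 levels were above all vehicle levels. The difference was 1.72-fold in unsorted, 3.27-fold in 2N (log2 1.71, 1.65 to 1.77) and 2.68-fold in 4N cells (1.42, 1.36 to 1.48). Ier5, which is known to act with the heat shock factor HSF1, moved least. It was at 79.0, 103 and 77.8 CPM with vehicle and at 63.0, 108 and 69.8 CPM with CYC065, and its log2 fold changes with CYC065 were −0.33 (−0.39 to −0.26), 0.07 (0.02 to 0.12) and −0.16 (−0.22 to −0.10) in unsorted, 2N and 4N cells.

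The Nr4a receptors had the largest differences of the 10 genes with CYC065 in unsorted cells. Nr4a1 (Nur77), known for roles in apoptosis and T cell receptor signalling, was at 10.2 CPM in unsorted, 18.2 in 2N and 12.7 in 4N vehicle cells, and at 41.3, 104 and 49.2 CPM with CYC065. The vehicle and CYC065 levels did not overlap, and no neighbours in the order of the 6 levels had overlapping intervals. Nr4a1 was higher with CYC065 by 4.03-fold in unsorted (log2 2.01, 1.88 to 2.14), 5.72-fold in 2N (2.52, 2.42 to 2.61) and 3.86-fold in 4N cells (1.95, 1.84 to 2.07).

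Nr4a2 (Nurr1), best known from dopamine neurons, was at 5.76 CPM in unsorted, 9.49 in 2N and 11.1 in 4N vehicle cells, and at 53.3, 52.8 and 63.2 CPM with CYC065. Its vehicle and CYC065 levels did not overlap either. The difference with CYC065 was 9.25-fold in unsorted (log2 3.21, 3.05 to 3.37), 5.56-fold in 2N (2.47, 2.34 to 2.61) and 5.68-fold in 4N cells (2.51, 2.39 to 2.62). In unsorted cells 98.7% of the 14082 genes tested had a smaller log2 fold change.

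The balance of these receptors shifted between populations. Per kilobase of exon, Nr4a1 exceeded Nr4a2 2.06 times in unsorted, 2.22 times in 2N and 1.32 times in 4N vehicle cells. With CYC065 the ratio was 2.29 in 2N cells, but 0.895 in unsorted and 0.900 in 4N cells, where Nr4a2 was the more abundant.

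The Klf genes differed in direction from each other. Klf2, which is linked to endothelial and T cell quiescence, was at 13.3 CPM in unsorted, 23.6 in 2N and 21.2 in 4N vehicle cells, and at 8.50, 18.6 and 14.6 CPM with CYC065. It was the one gene of the 10 with a negative log2 fold change in all 3 populations, −0.64 (−0.81 to −0.48), −0.35 (−0.46 to −0.23) and −0.54 (−0.66 to −0.42), none beyond 2-fold. Klf4, a reprogramming factor that also marks epithelial differentiation, was at 81.9, 52.2 and 57.9 CPM with vehicle and at 107, 115 and 105 CPM with CYC065. Its CYC065 levels were all above its vehicle levels, by 1.30-fold in unsorted, 2.20-fold in 2N (log2 1.14, 1.08 to 1.20) and 1.81-fold in 4N cells. The per-length ratio of Klf2 to Klf4 was 0.268 in unsorted, 0.747 in 2N and 0.604 in 4N vehicle cells and 0.132, 0.267 and 0.230 with CYC065, so unsorted vehicle cells were close to 2N cells with CYC065.

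Counted together, 3 of the 10 genes were called higher with CYC065 in unsorted cells (Egr1, Nr4a1 and Nr4a2), and 11.7% of the 14082 genes tested were. No member was called lower there, against 13.9% of all genes. In 2N cells 6 were called higher (Egr1, Egr2, Ier3, Nr4a1, Nr4a2 and Klf4), against 14.9% of 14090 genes, and none lower, against 13.3%. In 4N cells 4 were called higher (Egr2, Ier3, Nr4a1 and Nr4a2), against 14.1% of 14183 genes, and none lower, against 11.4%. The median log2 fold change of the 10 genes was 0.75, 1.15 and 0.86 in unsorted, 2N and 4N cells, where that of all genes was −0.07, −0.07 and −0.03. All 5 fibroblast markers were also higher with CYC065 in each population, with a median log2 fold change of 1.65, 1.10 and 1.03 and 3, 4 and 3 of them beyond 2-fold. Cd68, the 1 leukocyte marker tested, was higher by 1.42, 2.78 and 2.38.

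**Figure D2:**
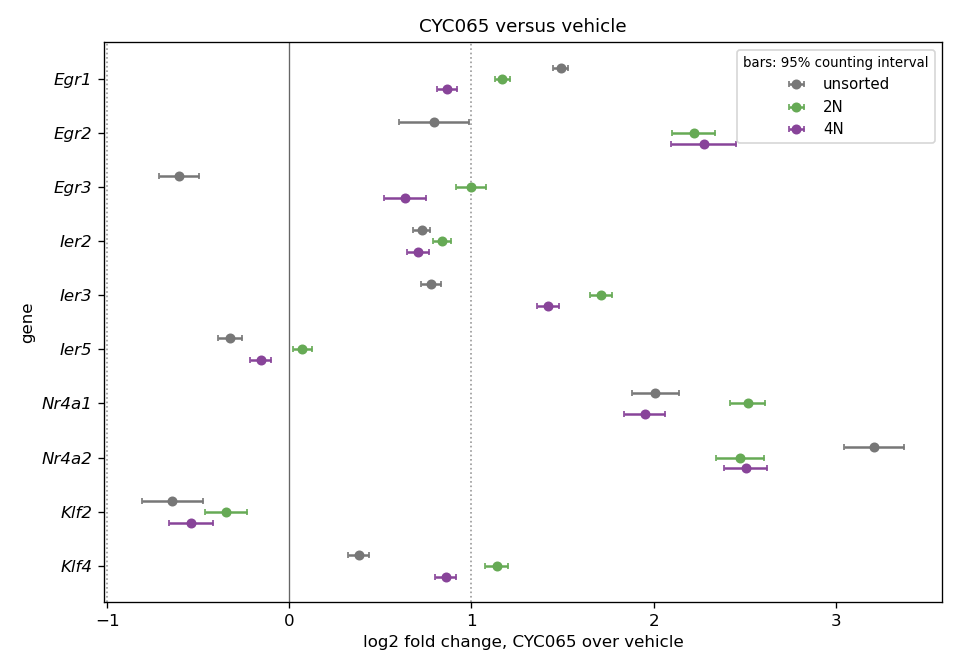
Log2 fold change of CYC065 over vehicle for each of the 10 genes (horizontal axis) in unsorted (grey), 2N (green) and 4N (purple) cells. Points compare 1 library with 1 library, bars are 95% counting intervals and dotted lines mark 2-fold. Nr4a1 and Nr4a2 lie beyond or near 4-fold in all 3 populations, at 1.95 to 3.21, Klf2 lies below 0 in each, and Egr3 lies at −0.61 in unsorted and 1.00 in 2N cells.

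The comparison of 4N with 2N cells asked how the same genes differ by DNA content. With vehicle, 1 of the 10 genes was called lower in 4N cells, Egr2, against 1.67% of the 13365 genes tested. None was called higher, against 1.02%. Egr2 was 2.42-fold lower (log2 −1.28, −1.47 to −1.08), and Egr3 and Egr1 were 1.89-fold and 1.81-fold lower (−0.92 and −0.85). Ier2 was at −0.68, Nr4a1 at −0.52 and Ier5 at −0.41. The others lay closer to 0, at −0.15 for Klf2, −0.01 for Ier3, 0.15 for Klf4 and 0.23 for Nr4a2.

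With CYC065, 4 of the 10 genes were called lower in 4N than in 2N cells (Egr1, Egr2, Egr3 and Nr4a1), against 1.99% of the 14180 genes tested, and none higher, against 1.57%. Egr3 was 2.44-fold lower (log2 −1.29, −1.37 to −1.20), Egr2 2.33-fold (−1.22, −1.31 to −1.14), Egr1 2.23-fold (−1.16, −1.19 to −1.12) and Nr4a1 2.12-fold lower (−1.08, −1.14 to −1.02). No more than 1.59% of genes had a lower log2 fold change than any of these 4. Ier2 was at −0.81, Ier5 at −0.63, Klf2 at −0.35, Ier3 at −0.30 and Klf4 at −0.13. Nr4a2 stood apart from Nr4a1 in both treatments, with 0.26 (0.19 to 0.33) here. The median of the 10 genes was −0.46 with vehicle and −0.72 with CYC065, where all genes had medians of 0.01 and 0.02. The 5 fibroblast markers were below 0 in both, with medians of −0.29 and −0.35, none beyond 2-fold.

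**Figure D3:**
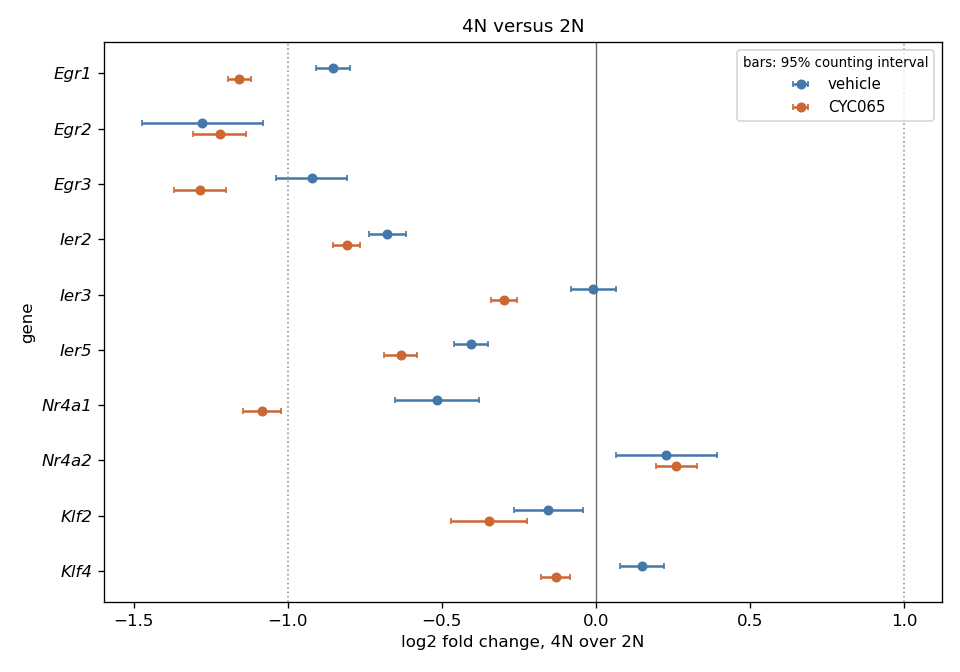
Log2 fold change of 4N over 2N cells (horizontal axis) for each of the 10 genes with vehicle (blue) and CYC065 (orange). Points compare 1 library with 1 library, bars are 95% counting intervals and dotted lines mark 2-fold. The 3 Egr genes lie between −1.29 and −0.85 in both treatments, while Nr4a2 lies at 0.23 and 0.26.

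Whether the 4N to 2N ratio itself differed by treatment was asked with the difference of the 2 log2 ratios. It was below 0 with its interval for 8 of the 10 genes, and largest for Nr4a1 (−0.57, −0.72 to −0.42), followed by Egr3 (−0.36) and Egr1 (−0.30). The share of all genes with an interval below 0 was not counted, so the 8 have no background to be set against. Of all genes, 7.98% had a smaller value than Nr4a1, 13.4% than Egr3 and 16.2% than Egr1. For Egr2 and Nr4a2 the difference of the log2 ratios was 0.06 (−0.16 to 0.27) and 0.03 (−0.15 to 0.21), so no difference was detectable at this depth. No gene of the 10 differed beyond 2-fold, where 3.61% of all genes were above and 3.51% below.

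Sorted cells were also set against unsorted cells of the same treatment. With vehicle, 1 gene of the 10 was called higher in 2N than in unsorted cells, Egr2 (log2 1.04, 0.86 to 1.23), against 3.25% of 13661 genes, and none lower, against 7.22%. This call rests on a value close to the threshold. Klf2, Nr4a1 and Nr4a2 followed at 0.83, 0.83 and 0.72, and Klf4 and Ier3 had the lowest values, −0.65 and −0.61. In 4N cells none was called in either direction, against 3.61% higher and 8.62% lower, and the values ran from −0.92 for Egr3 to 0.95 for Nr4a2.

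With CYC065, 4 genes were called higher in 2N than in unsorted cells, against 3.55% of 14126 genes, and none lower, against 3.23%. Egr2 was 5.54-fold higher (log2 2.47, 2.34 to 2.60), Egr3 3.04-fold (1.60, 1.505 to 1.70), Nr4a1 2.53-fold (1.34, 1.27 to 1.41) and Klf2 2.18-fold higher (1.13, 0.97 to 1.28). Egr1, Nr4a2 and Ier2 were close to unsorted cells, at −0.13, −0.02 and 0.04. In 4N cells 1 gene was called higher, Egr2 at 1.25 (1.11 to 1.38), against 4.17% of 14221 genes. Egr1 was called lower at −1.29 (−1.33 to −1.25), against 4.7% of genes.

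Markers of other cell types also differed between sorted and unsorted cells, and their part in these results was not tested. With CYC065 all 5 fibroblast markers were below 0, with medians of −0.50 in 2N and −0.84 in 4N cells, and Pdgfrb was called lower in 4N cells (−1.57). With vehicle 4 of the 5 were below 0 in each, with medians of −0.18 and −0.59. Cd68, the 1 leukocyte marker tested, was at 1.13 in 2N and 0.80 in 4N cells with CYC065, and at −0.23 and −0.16 with vehicle. Cdh5, the 1 endothelial marker tested, was at 2.10 in 2N and 2.73 in 4N vehicle cells. Its counts were 13 in unsorted, 56 in 2N and 91 in 4N vehicle cells. With CYC065 it was at 0.57 and 0.02. Pecam1 did not follow Cdh5, with 16, 13 and 18 counts in the same vehicle libraries, and Kdr had 1, 0 and 1.

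The level in unsorted cells often lay outside the range of the 2N and 4N levels. By a rule chosen after the values were seen, a gene was counted where both sorted populations differed from unsorted cells in the same direction with intervals beyond 0. With vehicle, the unsorted level was above both for 3 genes (Ier2, Ier3 and Klf4; 28.8% of 13562 genes) and below both for 3 (Nr4a1, Nr4a2 and Klf2; 33.7%). With CYC065 it was above both for Egr1 (26.0% of 13952 genes), which did not hold with the total count as the only scaling, where the 2N value of Egr1 was 0.05, and below both for 5 (Egr2, Egr3, Ier5, Nr4a1 and Klf2; 27.3%). Among all genes such levels were thus common. The place of Ier2 in the vehicle count did not hold with DESeq2 size factors. Its interval in 2N against unsorted cells ended at −0.016, and that scaling moved the values of this comparison by 0.027. Mitochondrial genes held 1.04% of counts in unsorted and 0.380% and 0.614% in 2N and 4N vehicle cells, and 1.69%, 0.701% and 0.793% with CYC065, and the part of this in the differences was not tested.

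**Figure D4:**
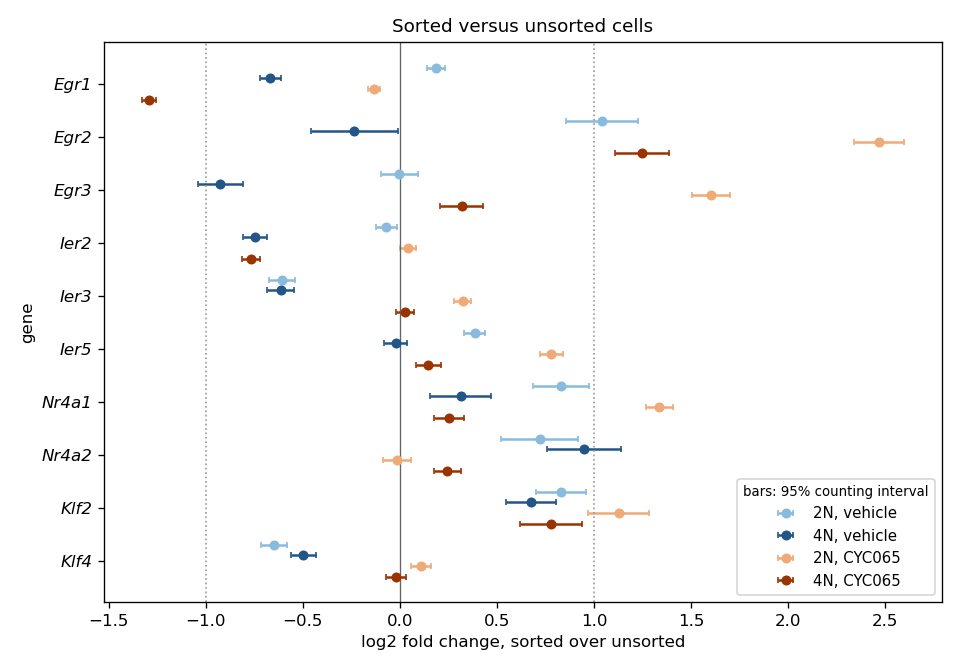
Log2 fold change of sorted over unsorted cells (horizontal axis) for each of the 10 genes, 2N in light and 4N in dark colours, vehicle in blue and CYC065 in orange. Points compare 1 library with 1 library, bars are 95% counting intervals and dotted lines mark 2-fold. Egr2 reaches 2.47 in 2N cells with CYC065, and Egr1 falls to −1.29 in 4N cells with CYC065.

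Over the 6 conditions some of the 10 genes ran close together, given here as a description over 6 libraries that share their sort and treatment. Log2 CPM of Egr1 correlated with that of Ier2 at r = 0.98, of Ier3 with Klf4 at 0.98, of Egr2 with Nr4a1 at 0.92 and of Nr4a1 with Nr4a2 at 0.91, and the lowest value was −0.65 for Klf2 with Klf4. Among 5772 other genes, those most like the mean of the 10 were Dusp6 (r = 0.991), which encodes a phosphatase of ERK, Pde1a (0.984), Pi15 (0.983), Amigo3 (0.983) and 5031410I06Rik (0.981). As the highest of 5772 values over 6 libraries, these r carry no test. Dusp6 was at 79.0, 79.4 and 69.3 CPM in unsorted, 2N and 4N vehicle cells and at 107, 141 and 107 CPM with CYC065. Pde1a lay between 0.273 and 2.03 CPM and 5031410I06Rik between 0.0341 and 2.05 CPM, so their lowest levels rest on few counts. Most like Egr1 alone were Gstp2 (0.974), Adamts4 (0.972) and Nat14 (0.967).

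Other members of the same families were followed in a list of 18, of which 12 were tested with CYC065. In each population 3 were called higher, and the genes of largest change were the same: Nr4a3, the remaining Nr4a receptor (log2 fold change 3.12, 2.04 and 2.87 in unsorted, 2N and 4N cells), Klf15 (2.63, 4.74 and 4.27) and Klf9 (1.04, 1.75 and 1.88), where Klf9 and Klf15 are known targets of glucocorticoids. Klf15 had only 6 and 7 counts in 2N and 4N vehicle cells, and its intervals there were wide (3.70 to 6.31 and 3.29 to 5.70). Klf10 was called lower in 4N cells, at −1.01. Of all genes with CYC065, 11.7%, 14.9% and 14.1% were called higher in unsorted, 2N and 4N cells, and 13.9%, 13.3% and 11.4% lower. In 4N against 2N cells none of these family members was called, and their median was −0.09 with vehicle and −0.10 with CYC065. Of all genes, 1.02% were called higher and 1.67% lower there with vehicle, and 1.57% and 1.99% with CYC065. Against unsorted cells 1 family member was called higher and 1 lower in 2N and 1 lower in 4N vehicle cells, and none with CYC065. The shares of all genes for these 3 vehicle counts were 3.25%, 7.22% and 8.62%. With CYC065 they were 3.55% and 4.17% higher and 3.23% and 4.7% lower in 2N and 4N cells.

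In a list of 41 other immediate early genes, all were tested. With CYC065 16 were called higher and 4 lower in unsorted cells, 16 and 4 in 2N, and 13 and 5 in 4N cells, with medians of 0.43, 0.71 and 0.59. Of all genes, 11.7%, 14.9% and 14.1% were called higher and 13.9%, 13.3% and 11.4% lower, with medians of −0.07, −0.07 and −0.03. Fos, the AP-1 subunit, was higher by 3.86, 2.49 and 2.42 on the log2 scale. In 2N cells Arc (3.20) and Zfp36 (2.44), which encodes an RNA-binding protein that destabilizes messages, were also among the largest. Arc was at 1.05 and 1.93 and Zfp36 at 1.64 and 2.31 in unsorted and 4N cells. Dusp1, a phosphatase of stress kinases, was at 2.18, 1.77 and 1.35 in unsorted, 2N and 4N cells. Id1, an inhibitor of helix-loop-helix factors, was lower in unsorted cells, at −2.65, but was at 0.16 (0.03 to 0.28) in 2N and −0.06 (−0.19 to 0.08) in 4N cells. Areg, an EGF receptor ligand, was lower in all 3, at −2.73, −1.51 and −2.52, with only 10 counts in unsorted cells with CYC065. Fosl1 was also lower in all 3, on larger counts. It was at 144, 237 and 209 CPM in unsorted, 2N and 4N vehicle cells and at 43.4, 65.0 and 60.1 CPM with CYC065. Hbegf was at 31.1, 116 and 104 CPM with vehicle and at 21.5, 40.3 and 26.1 CPM with CYC065.

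For this list, the difference of the log2 4N to 2N ratios, CYC065 minus vehicle, was above 0 for 4 of the 41 genes, with a median of −0.24. Of the 41, 3 were called lower, against 3.51% of all genes. With vehicle 1 of the 41 was called lower, against 1.67% of all genes. This was Dusp2 at −1.17, on only 33 counts in 2N and 15 in 4N cells. Fos was at −0.98 and Btg2 at −0.86, and the median of the 41 was −0.05. With CYC065 5 were called lower, against 1.99% of all genes, and none higher, against 1.57%. The 5 were Gadd45b at −1.68, Arc at −1.32, Areg at −1.06 (71 counts in 2N and 39 in 4N cells), Fos at −1.04 and Fosb at −1.02. The median was −0.43, with 2 of the 41 above 0. Against unsorted cells 8 were called higher and 3 lower in both 2N and 4N vehicle cells, and 13 and 5 were called higher in 2N and 4N cells with CYC065, none lower. Of all genes, 3.25% and 3.61% were called higher and 7.22% and 8.62% lower in 2N and 4N vehicle cells. With CYC065 these shares were 3.55% and 4.17% higher and 3.23% and 4.7% lower.

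Of 20 upstream regulators and corepressors, 1 was called with CYC065. Of all genes, 11.7%, 14.9% and 14.1% were called higher and 13.9%, 13.3% and 11.4% lower in unsorted, 2N and 4N cells. Srf, which encodes serum response factor, was lower, at −1.11 in unsorted, −1.44 in 2N and −1.48 in 4N cells, and is also on the list of immediate early genes. Crem, a CREB-related gene, was at 0.44, 0.93 and 0.98 in unsorted, 2N and 4N cells, and Nab2, a corepressor of Egr proteins, at −0.58, −0.77 and −0.87. In 4N against 2N cells none of the 20 was called, and their medians were 0.05 and 0.06, and none was called against unsorted cells either. Of all genes, 1.02% were called higher and 1.67% lower in 4N against 2N cells with vehicle, and 1.57% and 1.99% with CYC065. Against unsorted cells, the shares of all genes lay between 3.25% and 4.17% higher and between 3.23% and 8.62% lower.

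Heat shock genes, which respond to handling and to protein stress, were followed as a list of 12. With CYC065 none was called higher and 3 lower in unsorted cells, 3 and 3 in 2N, and 2 and 4 in 4N cells. Of all genes, 11.7%, 14.9% and 14.1% were called higher and 13.9%, 13.3% and 11.4% lower in these populations. Hspa1b and Hspa1a, near-identical copies whose reads can be shared, were higher with CYC065 by 2.98 and 2.48 in 2N and by 2.34 and 2.18 in 4N cells, while Hsp90aa1 was lower in unsorted (−1.52), 2N (−1.28) and 4N cells (−1.30). In 4N against 2N cells none was called, and Hspa1b was at −0.89 and Hspa1a at −0.83 with CYC065. The shares of all genes there were 1.02% higher and 1.67% lower with vehicle, and 1.57% and 1.99% with CYC065. Against unsorted vehicle cells 1 of the 12 was called lower in 2N cells (Hspa1b at −1.26), against 7.22% of all genes. In 4N cells 2 were called lower (Hspa1b at −1.51 and Hspa1a at −1.28), against 8.62%. None was called higher in 2N or 4N cells, against 3.25% and 3.61%. Against unsorted CYC065 cells Hspb1 was called higher in 2N (1.177) and 4N cells (1.04), against 3.55% and 4.17% of all genes. All 12 were above 0 in 2N cells with a median of 0.36, and 9 were above 0 in 4N cells with a median of 0.11. With CYC065 against vehicle, the 12 had medians of −0.19 in 2N and −0.38 in 4N cells, which mix genes called higher with genes called lower. Beside Hspa1b and Hspa1a, Bag3 was called higher in 2N cells, at 1.51 (1.43 to 1.59). The part of the heat shock genes in the result was not tested.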

How the data were processed

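RNA-Seq libraries were made from 100 ng to 1 μg of total RNA with a stranded, ribosome-depleting kit. The authors used bcl2fastq (2.17 per the labels) for demultiplexing and Cutadapt 1.18 for trimming. Alignment was to mm10 by STAR 2.7.0f, and RSEM (1.3.1 per the labels) gave the counts of GENCODE M21 genes. The paper's methods give other versions of bcl2fastq and RSEM. The deposited values are expected counts, not normalized. At least 1 of the 18 values was fractional for 9.66% of genes, but those of the 10 genes were all whole. Whether counting used strand is not given in the sources used here.

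The 3 columns of each condition were summed and rounded, scaled by TMM over the 6 libraries (factors 0.941 to 1.08) and compared with a prior count of 0.5. The members and all gene lists were chosen with earlier results of these data known. All 10 members are named, and from each list the counts, with genes chosen for the largest change among those with at least 100 counts; other listed genes were named after their values were seen. Because the columns were counted as 1 library, 10 comparisons were made without a test. The replicate numbers were not taken to pair columns across conditions. Alternatives were other scalings, filters, a prior count of 2, an interval rule, leaving out each column, and edgeR's quasi-likelihood test and DESeq2 on the 3 columns, both checked on simulated data. Software was edgeR 4.0.16 and DESeq2 1.42.0 under R 4.3.3, and SciPy 1.17.1, NumPy 2.4.6, pandas 2.3.3 and matplotlib 3.10.9 under Python 3.11.15.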

Additional observations from a re-analysis of the deposited data

Results flagged for a closer look

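Some log2 fold changes pointed in opposite directions in different populations or treatments. With 1 library per condition these differences were not tested. With CYC065 against vehicle, Egr3 was at −0.61 in unsorted, 1.00 in 2N and 0.63 in 4N cells, and Ier5 at −0.33, 0.0703 and −0.16. The interval of Ier5 in 4N cells ended at −0.10. Scaling by the total count alone moved the values of that comparison by 0.14, which took this end past 0. In 4N against 2N cells, Klf4 was at 0.15 with vehicle and −0.13 with CYC065.

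In 2N against unsorted cells, the values with vehicle and with CYC065 were 0.19 and −0.13 for Egr1, −0.0694 and 0.0426 for Ier2, −0.61 and 0.32 for Ier3, and −0.65 and 0.11 for Klf4. With the total count as the only scaling, the value of Egr1 with CYC065 was 0.05, so that both of its values were above 0. In 4N against unsorted cells they were −0.23 and 1.25 for Egr2, and −0.92 and 0.32 for Egr3. DESeq2 size factors moved the values against unsorted vehicle cells by 0.027 in 2N and 0.057 in 4N cells. The vehicle intervals of Ier2 in 2N cells, ending at −0.016, and of Egr2 in 4N cells, ending at −0.011, then reached past 0.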

How the results depend on the processing

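In 8 of the 10 comparisons, the number of genes called among the 10 stayed within 1.5 times under every alternative run. The exceptions were comparisons with unsorted vehicle cells. In 2N cells the count fell from 1 to 0 where the whole 95% counting interval had to lie beyond 2-fold, and ran from 0 to 1 when 1 column was left out (0 without the third, which ended the call of Egr2). In 4N cells it rose from 0 to 1 with DESeq2 size factors and ran from 0 to 1 when 1 column was left out (1 without the third), with Nr4a2 as the gene added. Egr3 passed 2-fold in 2N cells with CYC065 against vehicle under 7 alternatives, which made 7 genes in place of 6, and Egr1 did so in 4N cells with the total count as the only scaling, which made 5 in place of 4. Klf2 was not called in 2N against unsorted CYC065 cells under the interval rule, which left 3. Scaling by the total count alone moved the median of all genes by 0.14 in 2N and 0.14 in 4N cells with CYC065 against vehicle, and by 0.18 and 0.20 in 2N and 4N against unsorted CYC065 cells. It turned the sign of Egr1 to 0.05 and Nr4a2 to 0.17 in 2N, and of Klf4 to 0.17 in 4N against unsorted CYC065 cells. With edgeR's quasi-likelihood fit to the 3 columns, the log2 fold change of Egr3 in 2N cells with CYC065 against vehicle was 1.09 with the replicate block and 1.09 with no replicate block, and the columns share only a number. Among all genes, 4N against 2N calls depended on the filter and the rule. With vehicle 359 genes were called, against 5456 with no filter on low counts, 120 with at least 100 counts and 70 under the interval rule. With CYC065 505 were called, against 7194, 215 and 162. Low counts did not limit the 10 genes, which had at least 298 counts in each library, but the single library per condition leaves the spread between cultures unmeasured.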
